A study of Solanum tuberosum with 136 samples.

Results

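In stored potato tubers, 48 of 32878 genes had their highest level in control primary buds after 3 weeks of storage, by a set margin over every other control time point. Counts were divided by each library's total and multiplied by 1000000 (CPM), and the level of a group was log2 of the mean CPM of its 4 libraries plus 1. A gene became a member if its level in control buds at week 3 exceeded the highest level of the other 8 control bud time points by 0.5 or more. Fewer genes met the margin than the limit of 150, so all 48 were kept, and 27504 of the 32878 genes had a count in any library. The members were thus chosen by the levels of the 36 control bud libraries, whose values are given as a description without a test.

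All tubers were of the cultivar Russet Burbank (Solanum tuberosum), and primary bud and flesh were sampled. Ethylene-treated tubers received 10 ppm without interruption for 15 weeks and were sampled at weeks 3, 6, 9, 12 and 15. Tubers kept in air after those 15 weeks were sampled at weeks 16, 17 and 18, and untreated controls were sampled at weeks 0, 3, 6, 9, 12, 15, 16, 17 and 18. Each of the 34 groups had 4 libraries, 68 per tissue. Whether each library is its own tuber is not stated in the labels, so p-values measure the spread between these libraries, which may be technical. Each time point may also be 1 sampling occasion, and the labels name no batch, so storage time and sampling occasion cannot be told apart.

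A potato tuber is dormant at harvest, which means that its buds do not grow even under favourable conditions, and it leaves dormancy during storage. Ethylene is a gaseous plant hormone that cells perceive through membrane receptors, and continuous ethylene in the store is used to restrain sprout growth. The bud contains the meristem that forms the sprout, while the flesh is starch-storing parenchyma that feeds it. The deposited table gives gene IDs without names and none of the IDs matched the name table at hand (0 matches), so members are called by ID and no function is given for any of them. For the same reason the tissues could not be checked against marker genes. In whole tissue, fewer cells of a type and less RNA per cell cannot be told apart.

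Library totals, in units of 1000000 counts, ran between 16.6 and 50.9 (median 31). At week 3 they were 29.5 to 50.9 in ethylene buds and 29 to 43.1 in control buds. One library stood apart, replicate 1 of buds after 2 weeks in air (week 17). Its median level over the members was 3.41 on the log2(CPM + 1) scale, against 4.39 to 4.62 in the other 3 libraries of that group, and it was the lowest of the 4 for 35 of the 48 members. Over all genes with a count it was the lowest of the 4 for 46.3%. Results that rest on it are given with and without it.

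In control buds the members formed a single-week peak followed by a trough and a smaller second rise. At weeks 0, 3, 6 and 9 the median level over the 48 members was 4.44 ± 0.11, 5.73 ± 0.18, 4.58 ± 0.01 and 3.77 ± 0.11 (SD, n = 4 libraries each). It was 4.79 ± 0.17 at week 12 and lay between 4.04 and 4.24 from week 15 to week 18. Week 9 was the lowest control week for 23 of the 48 members. The rule asked the same of weeks 0, 6, 9 and 12, that each lie below week 3 by the set margin. The peak at week 3 thus follows from the choice of members. The rule did not set the order of weeks 9 and 12. Both entered it, however, so the trough and the second rise in controls are given as a description. Nothing is read from their difference from all genes. From week 9 to week 12 the members moved by a median of 0.63 (log2), with 39 of 48 positive, where all genes tested moved by a median of 0.22. In 25 of 48 members all 4 control libraries of week 12 exceeded all 4 of week 9, and 32.6% of all 24328 genes tested did so; 0 members and 11.5% of all genes moved the other way. Weeks 0 and 18 both entered the rule, so nothing is read from the difference between them. In 23 members all 4 control libraries of week 18 were below all 4 of week 0, and in 4 they were above, where 15.3% of all genes were lower and 37.1% were higher.

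**Figure D1:**
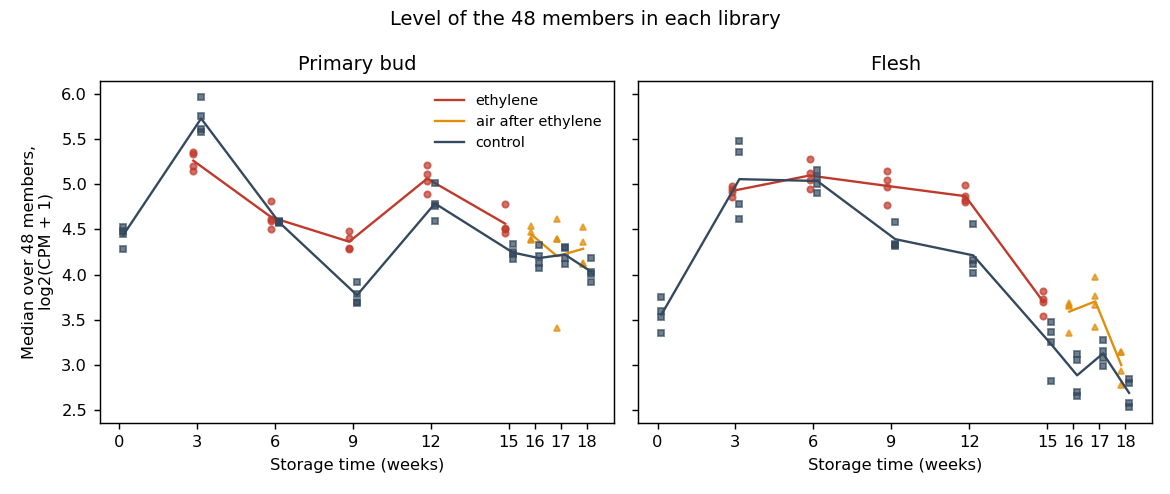
Median over the 48 members of log2(CPM + 1) in each library (points) against storage time in weeks, in primary bud (left) and flesh (right), with lines through the group means for ethylene, air after ethylene and control. In bud, the group mean of week 3 is above those of the other weeks of its own treatment, at 5.26 under ethylene and 5.73 in controls. Under ethylene the libraries of week 3 (5.14 to 5.36) overlap with those of week 12 (4.89 to 5.21, mean 5.06). In flesh the high level extends over weeks 3 and 6.

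The peak was broad among weakly and strongly expressed genes. The mean level of a member in control buds at week 3 ran between 0.748 and 1200 CPM with a median of 49.3 CPM. Of the 48 members, 6 were under 5 CPM, 24 were between 5 and 100 CPM, and 18 were at 100 CPM or more. The margin over the next control week had a median of 0.62 and a maximum of 1.35. The last member inside the margin, Soltu.DM.04G026790, averaged 28.05 CPM at week 3 and 19.5 CPM at week 6, a margin of 0.50. The first gene outside, Soltu.DM.02G007630, averaged 58.2 CPM at week 3 and 40.9 CPM at week 9, a margin of 0.498. In 35 of the 48 members, all 4 control bud libraries of week 3 exceeded all 32 other control bud libraries, which held for 1.07% of all genes tested in bud; since the rule used these libraries, nothing is read from that difference.

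The largest margin belonged to Soltu.DM.06G028510. Its level in ethylene buds at week 3 was 68.7, 67.5, 61.1 and 63.1 CPM, against 71.9, 70.3, 73.5 and 61.7 CPM in control buds. The 2 groups overlapped. At weeks 3, 6, 9, 12 and 15 this gene averaged 65.1, 23.2, 22.8, 29.5 and 8.96 CPM in ethylene buds. Control buds averaged 3.00 CPM at week 0 and 69.4, 21.6, 9.62, 26.7 and 11.8 CPM at weeks 3 to 15.

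The second largest margin was that of Soltu.DM.12G022690, for which the treatments separated at week 3. It had 98.3, 75.1, 77.2 and 100.8 CPM in ethylene buds, against 137, 124.8, 122.6 and 113.7 CPM in control buds, so every ethylene library was below every control library. At week 12 the order was the other way, with 69.4 ± 12.6 CPM in ethylene buds and 35.6 ± 4.96 CPM in control buds (SD, n = 4 each). The most abundant members were Soltu.DM.07G002970, at 1291 ± 126.4 CPM in ethylene buds and 1200 ± 50 CPM in control buds at week 3, and Soltu.DM.05G023730, at 840.4 ± 56.9 CPM in ethylene buds and 850.4 ± 37.5 CPM in control buds (SD, n = 4 each). Both overlapped between treatments.

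**Figure D2:**
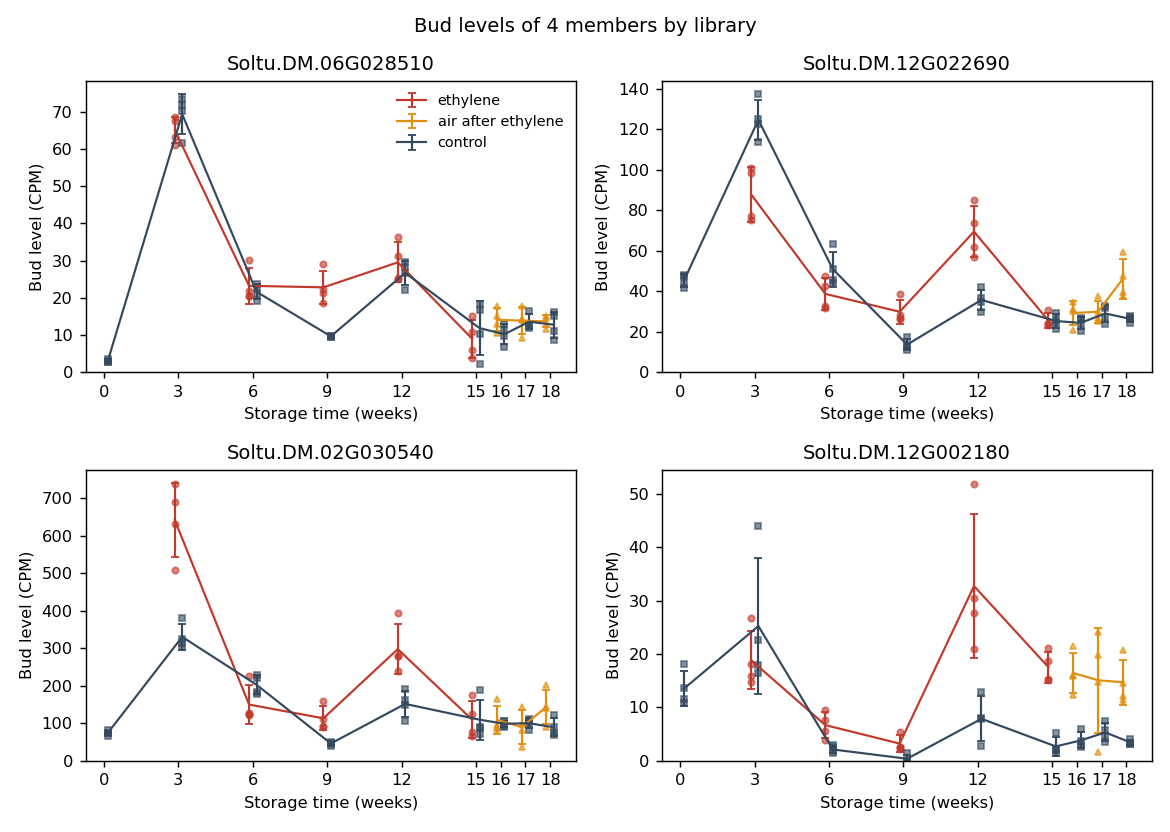
CPM of 4 members in each bud library (points) with group means and SD bars (n = 4) against storage time in weeks, for ethylene, air after ethylene and control. Soltu.DM.06G028510 overlaps between treatments at week 3, Soltu.DM.12G022690 is lower under ethylene, Soltu.DM.02G030540 is higher under ethylene (642 against 330 CPM), and Soltu.DM.12G002180 has its highest ethylene mean at week 12.

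The shape of the peak differed among members. In 18 members the next-highest control week was week 0, in 10 it was week 6, and in 20 it was week 9 or later, among them 7 with week 12. Examples are given as control bud means at weeks 0, 3 and 6. In the first class these were 371, 850.4 and 238 CPM for Soltu.DM.05G023730 and 13.5, 25.2 and 2.12 CPM for Soltu.DM.12G002180. In the class with week 6 next they were 20.7, 48.8 and 27.4 CPM for Soltu.DM.10G001240. In the class with a later week next they were 42.8, 98.1 and 32.6 CPM for Soltu.DM.05G006330, whose next-highest mean was 43.3 CPM at week 17.

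For 5 of the 48 members a single library held more than 50% of the summed CPM of the 4 control libraries at week 3. Soltu.DM.04G009800 had 31.04 CPM in replicate 1 and between 1.28 and 2.88 CPM in the other 3 control libraries, so 83.1% of its sum came from 1 library. Soltu.DM.06G029960 had 583 CPM in replicate 4 and between 122.6 and 197 CPM in the other 3, a share of 55.9%. The week 3 mean of these genes thus rests on those libraries. Leaving out each control bud library in turn gave between 44 and 56 genes, 41 to 48 of them shared with the 48, and 28 members stayed whichever library was left out.

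**Figure D3:**
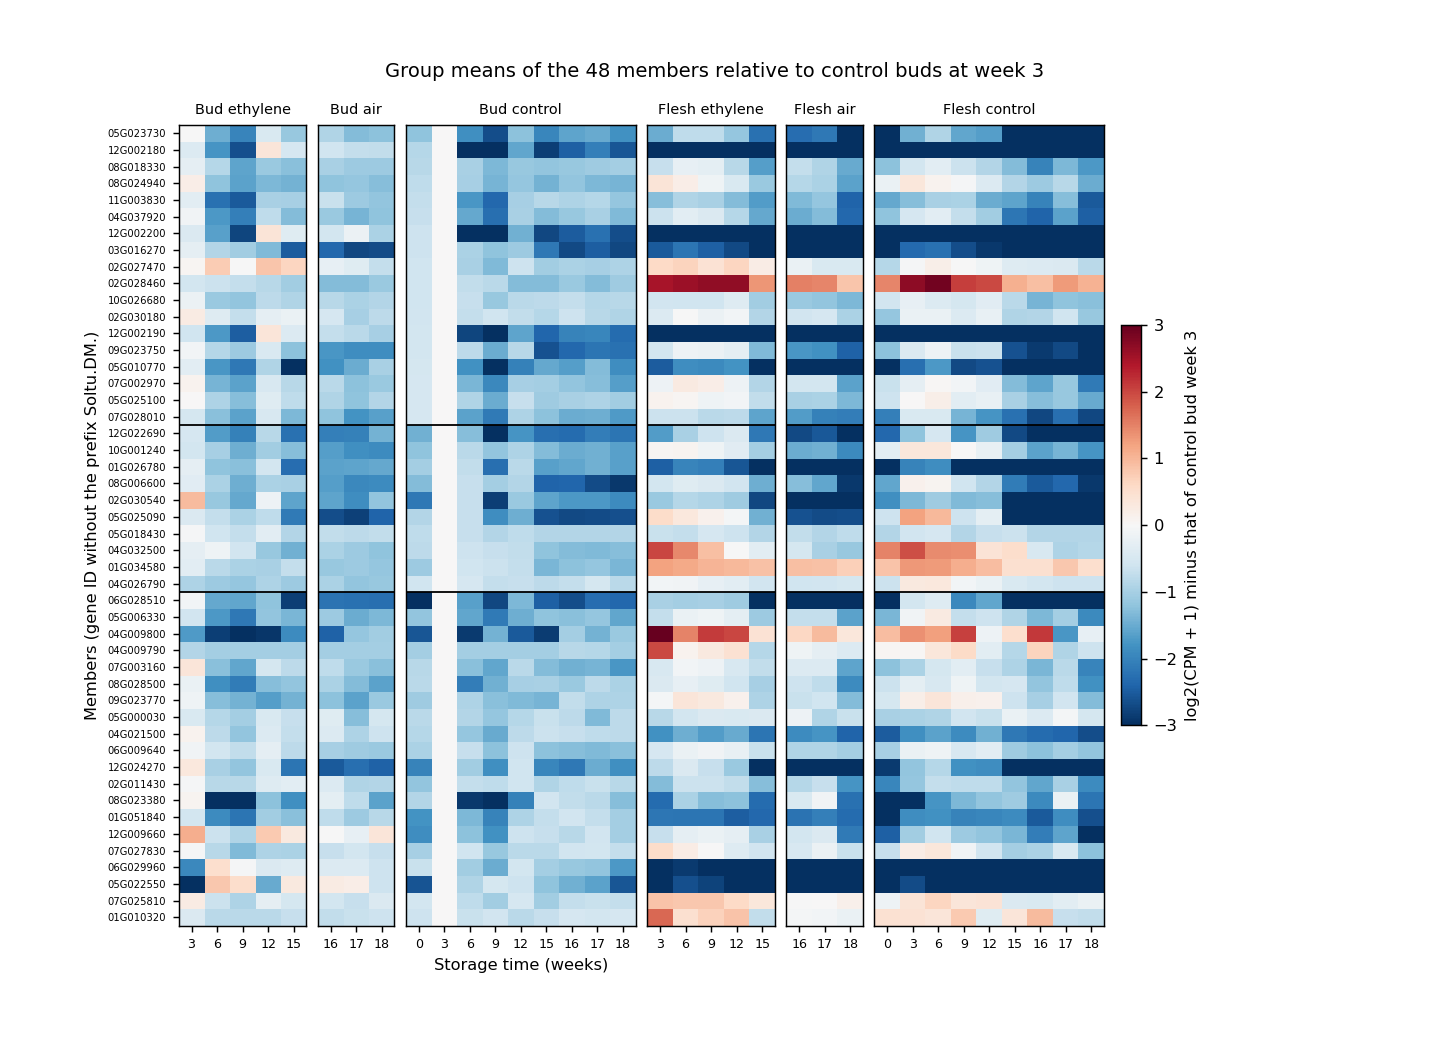
Heat map of the 48 members (rows, gene IDs without their common prefix) by group mean, coloured by log2(CPM + 1) minus that of control buds at week 3, with storage weeks along the horizontal axis in blocks for ethylene, air after ethylene and control in bud and in flesh; colours stop at -3 and 3. Horizontal lines separate members whose next-highest control week was 0 (top, 18 members), 6 (middle, 10) and 9 or later (bottom, 20). Control bud week 3 is 0 by construction, and some flesh groups are above it for several members, such as Soltu.DM.04G009800 under ethylene at week 3.

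Ethylene-treated buds, whose libraries were not used to choose the members, also had most of these genes at their highest in week 3. Compared with the average of the later ethylene weeks (6, 9, 12 and 15), 37 of 48 members were higher at week 3 and 3 were lower (edgeR quasi-likelihood test, Benjamini-Hochberg adjusted p under 0.05 over 24328 genes). Of all genes tested, 22.4% were higher and 23.2% were lower. The median log2 fold change was 0.99 for the members and -0.02 for all genes. Of the members, 23 were higher by 2-fold or more, and 45 of 48 had a positive sign. No share of all genes was computed for these last 2 counts, so nothing is read from them. The 37 and the 23 include Soltu.DM.04G009790, with 0, 0.393, 0 and 0 CPM at week 3. That gene had no counts in the later ethylene weeks, so it has no finite fold. It passed the count filter in part through that week 3 library. Also in both counts are Soltu.DM.01G010320 and Soltu.DM.05G018430, whose average log2 CPM over the bud libraries was -2.31 and -1.99. Genes this low may likewise have passed the filter through week 3 libraries in which they were high, so nothing is read from their calls. The peak week within the ethylene series was week 3 for 38 members, week 12 for 7 and week 6 for 3. For all genes tested the shares peaking at weeks 3, 12 and 6 of this series were 27.4%, 23.6% and 16.8%. In 25 members all 4 ethylene libraries of week 3 exceeded the other 16 ethylene bud libraries, against 6.14% of all genes tested. Without the library that stood apart, whose only part here is in the estimate of spread, 38 members were higher and 3 were lower.

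Among members of at least 5 CPM, the largest rises at week 3 under ethylene were in Soltu.DM.08G023380 and Soltu.DM.02G030540. Soltu.DM.08G023380 had 23.7, 26.5, 24.7 and 31.4 CPM in ethylene buds at week 3, and averaged 1.45, 0.685, 9.97 and 6.23 CPM at weeks 6, 9, 12 and 15. All 4 libraries of week 3 were above every later ethylene library, and the log2 fold change was 3.19 (SE 0.50, adjusted p = 3.68e-07, edgeR). Soltu.DM.02G030540 had 738, 632, 510 and 689 CPM at week 3 and averaged 150, 113.3, 298 and 110 CPM at the later weeks. Here too no later library reached the level of week 3, and the log2 fold change was 2.01 (SE 0.19, adjusted p = 4.12e-13, edgeR).

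The exceptions ran in the opposite direction. Soltu.DM.05G022550 had 3.24, 4.30, 14 and 32.7 CPM in ethylene buds at week 3 and averaged 209, 172, 40.6 and 144 CPM at weeks 6, 9, 12 and 15, a log2 fold change of -3.25 (SE 0.79, adjusted p = 0.000543, edgeR). Soltu.DM.06G029960 had 23.4, 37.8, 86.2 and 120.9 CPM at week 3 and averaged 371, 254, 194 and 200 CPM later, a log2 fold change of -1.95 (SE 0.45, adjusted p = 0.000296, edgeR). For both genes the libraries of week 3 overlapped with those of week 12, and both are among the 5 members whose control mean rests on 1 library. The third member below its later ethylene weeks was Soltu.DM.02G027470, with a log2 fold change of -0.59.

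Between treatments at week 3 the members had a somewhat lower median in ethylene buds. The median level over members was 5.26 ± 0.11 in ethylene buds and 5.73 ± 0.18 in control buds (SD, n = 4 each), and the 2 sets of 4 libraries did not overlap. Member by member, the difference ethylene minus control had a median of -0.27 (log2), with 36 negative and 12 positive, where the median over all genes tested was -0.01. All 4 ethylene libraries were below all 4 control libraries for 17 members and above them for 7; the shares of all genes tested were 10.4% and 9.04%. Because the control libraries of week 3 were selected for being high, a lower value in any other group is favoured by the choice of members, and no test was made. The summed level of all 48 members was 7622 CPM in ethylene buds and 7593 CPM in control buds.

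Individual members departed from that median in both directions. Soltu.DM.05G006330 had 61.7, 66.2, 65.5 and 67.9 CPM in ethylene buds, against 98.1, 104.9, 100.4 and 88.8 CPM in control buds at week 3. Soltu.DM.02G030540 had 738, 632, 510 and 689 CPM in ethylene buds, against 379.9, 315, 324 and 304 CPM in control buds. The groups did not overlap in either gene, and the signs were opposite. The largest difference was in Soltu.DM.05G022550, at 13.6 ± 13.65 CPM in ethylene buds and 118.3 ± 129.3 CPM in control buds (SD, n = 4 each); its highest ethylene library, at 32.7 CPM, was just below its lowest control library, at 33.98 CPM.

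At later weeks more members were higher than lower under ethylene. The 4 ethylene libraries of weeks 6, 9, 12 and 15 exceeded the 4 control libraries of the same week in 9, 17, 15 and 14 members, and were below them in 5, 3, 1 and 5. Over all genes tested the shares higher were 6.37%, 6.86%, 8.14% and 9.38%, and the shares lower were 16.1%, 7.30%, 8.38% and 25.1%. At week 9, the trough of the controls, the median over members was 4.36 ± 0.10 in ethylene buds and 3.77 ± 0.11 in control buds (SD, n = 4 each). The control libraries of these weeks also entered the rule, as the levels to be exceeded. The members were thus chosen for low controls at these weeks relative to week 3, which favours a higher value under ethylene. The counts describe the members and were not tested. The second rise at week 12 appeared in ethylene buds too: from week 9 to week 12 the members moved by a median of 0.60 (log2), 39 of 48 positive, against 0.19 for all genes tested. All 4 libraries of week 12 exceeded all 4 of week 9 in 29 members and were below them in 0, against 31.9% and 12.3% of all genes tested. Between weeks 12 and 15 of ethylene, 15 members were lower without overlap and 1 was higher, against 9.41% and 4.88% of all genes.

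Flesh, which the rule did not use at all, held a high level of most members over both week 3 and week 6. In control flesh, 34 of 47 members tested were higher at week 3 than the average of the other 8 control weeks and 1 was lower (edgeR, adjusted p under 0.05 over 21718 genes), against 21.2% and 17.6% of all genes. One member had too few counts in flesh to be tested. The 34 include Soltu.DM.05G018430, whose highest mean in any flesh group was 0.3025 CPM. It may have passed the count filter only through libraries in which it was high, so nothing is read from its call. The median log2 fold change was 0.85. At weeks 0, 3, 6, 9, 12 and 18 the median level over members was 3.56 ± 0.16, 5.06 ± 0.42, 5.04 ± 0.11, 4.39 ± 0.13, 4.21 ± 0.24 and 2.69 ± 0.16 (SD, n = 4 each). All 4 libraries of week 3 exceeded all 4 of week 0 in 29 members and were below them in 0, against 10.9% and 8.46% of all genes. All 4 libraries of week 18 were below all 4 of week 3 in 39 members and above them in 2, against 19.3% and 12.4% of all genes. The highest control flesh week was week 6 for 28 members and week 3 for 10, while 14.7% of all genes tested peaked at week 6 and 12.8% at week 3. Of the 37 members higher at week 3 in ethylene buds and the 34 higher in control flesh, 28 were the same genes. With 37 of 48 and 34 of 47 called, a large overlap follows from the counts alone. No share over all genes was computed, so nothing is read from the 28.

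Soltu.DM.06G028510, the member with the largest margin in bud, had 57.9, 55.05, 37.1 and 36.99 CPM in control flesh at week 3. At weeks 0, 6, 9 and 12 it averaged 0.201, 52.7, 17.4 and 22.9 CPM, and it was between 0.304 and 0.767 CPM from week 15 to week 18. The mean of week 6 was above that of week 3 (46.8 CPM). The log2 fold change of week 3 over the other weeks was 4.69 (SE 0.25, adjusted p = 1.53e-23, edgeR). It averages the other weeks on the log scale, so the weeks with very low levels weigh heavily. Their plain mean over all other control weeks was 11.9 CPM. Soltu.DM.08G006600 had 8.49, 7.34, 7.71 and 5.04 CPM at week 3 and between 0 and 6.82 CPM on average in the other weeks (edgeR, adjusted p = 4.43e-07). Its fold is left out because week 18 had no counts. The single member below its other control flesh weeks was Soltu.DM.08G023380, with 1.90, 2.12, 0 and 2.23 CPM at week 3 and means between 2.28 and 21.5 CPM in the other weeks (log2 fold change -2.28, SE 0.48, adjusted p = 8.56e-05, edgeR).

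In ethylene-treated flesh, 11 of 47 members were higher at week 3 than over the later ethylene weeks and 6 were lower (edgeR), where 15.3% and 15.0% of all genes were. The highest ethylene flesh week was week 6 for 22 members and week 3 for 13, while 14.4% of all genes tested peaked at week 6 and 27.7% at week 3. The share of members at week 3, 27.1%, was thus close to that of all genes. At weeks 3, 6, 9, 12 and 15 the median over members was 4.92 ± 0.05, 5.10 ± 0.14, 4.98 ± 0.16, 4.87 ± 0.08 and 3.70 ± 0.12 (SD, n = 4 each), so the level stayed near its maximum to week 12. The largest rises at week 3 were in Soltu.DM.04G009790 and Soltu.DM.04G009800, whose IDs are consecutive. Soltu.DM.04G009800 had 157, 313, 33.3 and 16.1 CPM in the 4 libraries and averaged 27.98, 43.5, 40.1 and 13.1 CPM at the later weeks. Its log2 fold change was 2.21 (SE 0.58, adjusted p = 0.00187, edgeR), and without replicate 2 it was 1.31 with an adjusted p of 0.144. Soltu.DM.04G009790 had 12.2, 13.5, 1.69 and 0.553 CPM at week 3 and averaged 1.18, 1.49, 1.78 and 0.125 CPM later (log2 fold change 3.18, SE 0.98, adjusted p = 0.00893, edgeR). That call was lost without replicate 1 or 2 of week 3 and under DESeq2, with adjusted p between 0.0534 and 0.0626.

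The lower members of ethylene flesh at week 3 included the same exceptions as in bud. Soltu.DM.05G022550 had 2.80, 3.85, 2.44 and 6.97 CPM at week 3 and averaged 18.2, 16.3, 11.7 and 9.15 CPM later (log2 fold change -1.73, SE 0.59, adjusted p = 0.0200, edgeR). Soltu.DM.06G029960 had 6.86, 7.09, 6.61 and 14.2 CPM and averaged 35.01, 22.7, 19.1 and 12.4 CPM later (log2 fold change -1.25, SE 0.46, adjusted p = 0.0328, edgeR). In both genes the libraries of week 3 overlapped with some later libraries. Leaving out replicate 1, 2 or 3 of this group ended both calls, with adjusted p between 0.0535 and 0.106, and leaving out replicate 1 of week 12 ended that of Soltu.DM.06G029960 (adjusted p 0.0528). The count of 6 lower members fell to 2 without replicate 1 and to 3 without replicate 2 of ethylene flesh at week 3.

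Ethylene changed few members in flesh at week 3. Against control flesh, 2 of 47 members were higher and 4 were lower, with 2.40% and 2.73% of all genes, and 41 did not pass. All 4 ethylene libraries were above all 4 controls in 4 of the 48 members and below them in 6, against 6.45% and 5.19% of all genes. Soltu.DM.07G025810 had 954, 886, 835 and 852 CPM in ethylene flesh, against 632, 664, 644 and 622 CPM in control flesh (log2 fold change 0.45, SE 0.06, adjusted p = 6.92e-07, edgeR). Soltu.DM.07G003160 had 442, 450.0, 408 and 434 CPM in ethylene flesh, against 379, 354, 239 and 287 CPM in control flesh (log2 fold change 0.46, SE 0.10, adjusted p = 0.00152, edgeR). In bud, too, all 4 ethylene libraries of these 2 genes were above the control libraries at week 3.

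Soltu.DM.05G006330 was lower, with 57.3, 52.8, 68.4 and 59.9 CPM in ethylene flesh, against 96.4, 94.6, 79.9 and 90.8 CPM in control flesh (log2 fold change -0.61, SE 0.12, adjusted p = 0.000308, edgeR). Soltu.DM.12G022690 had 34.6, 34.8, 43.1 and 39.9 CPM in ethylene flesh, against 57.2, 52.4, 50.8 and 52.5 CPM in control flesh (log2 fold change -0.49, SE 0.14, adjusted p = 0.0287, edgeR). Neither pair of groups overlapped, and both genes were below the controls in bud as well. For Soltu.DM.12G022690 the call was lost without any 1 of 5 libraries (replicates 1 and 2 of control flesh and replicates 1, 2 and 4 of ethylene flesh), with adjusted p between 0.0503 and 0.110. Without replicate 2 of ethylene flesh, 2 members were lower.

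From week 9 onward members were more often higher in ethylene flesh than in control flesh. All 4 ethylene libraries exceeded all 4 controls in 20, 11 and 16 of 48 members at weeks 9, 12 and 15, and were below them in 0, 0 and 3. The shares of all genes tested that were higher were 5.46%, 4.22% and 8.59%, and the shares lower were 3.36%, 1.89% and 12.9%. At week 6 the counts were 6 higher and 7 lower, with shares of 7.50% and 13.1%. These counts were not tested.

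For 25 of the 48 members the week 3 level stood higher over the later ethylene weeks in bud than in flesh, and for 1 it stood lower (edgeR, test of the difference between tissues over 24835 genes with the libraries of both tissues). The same held for 17.0% and 20.3% of all genes. The median difference was 0.85 (log2). For Soltu.DM.08G023380 the bud course given above went with means of 4.20 CPM at week 3 and 12.3, 9.73, 9.99 and 4.19 CPM at the later weeks in ethylene flesh, a difference of 4.16 (SE 0.78, adjusted p = 4.10e-06, edgeR). The single member with the opposite sign, Soltu.DM.02G027470, had 12.5 CPM at week 3 and 20.9, 11.9, 22.1 and 19.3 CPM later in ethylene buds, and 18.5 CPM and 19.6, 16.6, 19.4 and 14.2 CPM in ethylene flesh (difference -0.75, SE 0.28, adjusted p = 0.0246, edgeR). That call was lost without replicate 1 or 2 of ethylene buds at week 3 or without replicate 1 of ethylene flesh, with adjusted p between 0.0607 and 0.0900, and the count of members with a more negative contrast was then 0.

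**Figure D4:**
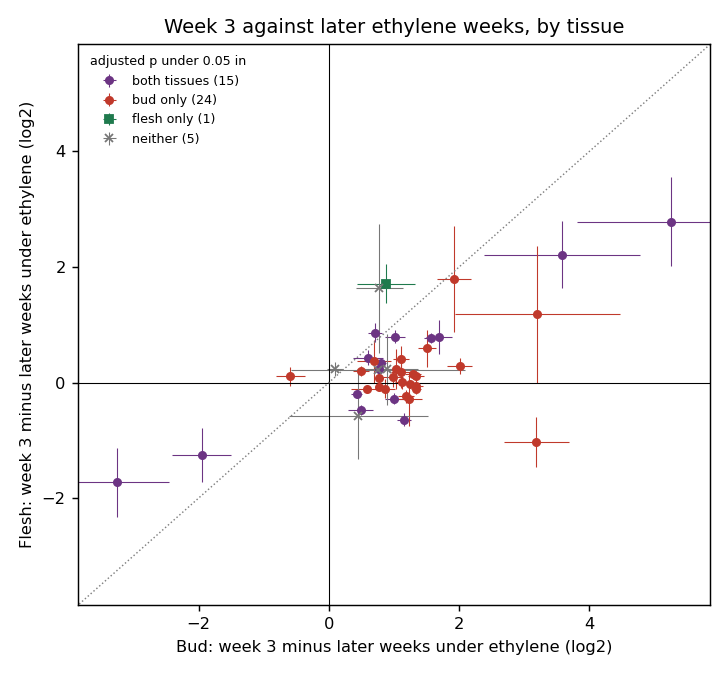
Log2 fold change of ethylene week 3 over the later ethylene weeks for the 45 members with counts on both sides in both tissues, in bud (horizontal) and flesh (vertical); bars are standard errors, colours and symbols mark the tissues in which the adjusted p was under 0.05, and the dotted line marks equal values. Most members lie to the right of 0 and below the dotted line, and 24 were called in bud and not in flesh.

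Bud and flesh also differed in level under ethylene at week 3. Of 48 members, 23 were higher in bud and 12 were higher in flesh (edgeR), where 24.7% and 19.6% of all genes tested were. The 23 include 1 member, Soltu.DM.12G002190, that passed the count filter only through bud, and 22 without it. Soltu.DM.12G002200 had 31.98, 25.02, 24.6 and 35.1 CPM in bud and 0 CPM in all 4 flesh libraries. Against a floor of 3 counts over the flesh group it was at least 1020-fold higher in bud (adjusted p = 7.22e-11). Soltu.DM.12G002190 had 7.34, 5.56, 5.36 and 8.18 CPM in bud, was also at 0 in every flesh library, and its level in bud was at least 231-fold that of flesh. Since it was tested only because bud is high, its p is not given. In the other direction, Soltu.DM.04G009800 had 3.63, 1.16, 2.07 and 1.90 CPM in bud, against 157, 313, 33.3 and 16.1 CPM in flesh (log2 fold change -5.98, SE 1.16, adjusted p = 7.98e-06). Soltu.DM.04G009790 had 0, 0.393, 0 and 0 CPM in bud, against 12.2, 13.5, 1.69 and 0.553 CPM in flesh (log2 fold change -6.08, SE 2.17, adjusted p = 0.0176), and its call was lost without any 1 of replicates 1, 3 and 4 of the buds (adjusted p 0.0512 to 0.0522).

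Soltu.DM.12G002180, Soltu.DM.12G002190 and Soltu.DM.12G002200 are 3 consecutive IDs. In ethylene buds at week 12 Soltu.DM.12G002180 had 51.9, 27.6, 20.8 and 30.5 CPM, against 7.92, 2.69, 7.87 and 12.96 CPM in control buds. Soltu.DM.12G002200 averaged 52.4 ± 23.1 CPM in ethylene buds and 13.9 ± 7.09 CPM in control buds, and Soltu.DM.12G002190 averaged 13.8 ± 7.41 CPM in ethylene buds and 2.82 ± 1.73 CPM in control buds at that week (SD, n = 4 each). Ethylene and control libraries did not overlap at week 12 for any of these 3 genes. None of these 3 passed the test of ethylene week 3 against the later ethylene weeks (adjusted p 0.0758 to 0.286, edgeR), and each had a higher ethylene mean at week 12 than at week 3. In all, 9 members lay in 5 pairs of consecutive or next-but-one IDs. Such genes can be near-identical copies, and the handling of reads they share is not given, so their separate values are uncertain.

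After ethylene was withdrawn, 13 of 48 members fell in bud and 2 rose, averaged over weeks 16, 17 and 18 in air and compared with ethylene week 15 (edgeR), against 12.4% and 12.2% of all genes. The median log2 fold change was -0.23. Without the library that stood apart the counts were 15 lower and 2 higher, and without replicate 1 of ethylene week 15 there were 4 higher. A fit of these 4 groups alone gave 7 lower members of 48. The share of all genes in that fit is not given here, so the 7 cannot be set against it. With each compared library left out in turn, 2535 to 4267 of 24328 genes were lower and 2319 to 4007 were higher. At weeks 16, 17 and 18 in air the median level over members was 4.45 ± 0.08, 4.20 ± 0.54 and 4.29 ± 0.20, against 4.56 ± 0.15 at ethylene week 15 (SD, n = 4 each); week 17 was 4.47 ± 0.13 without the library that stood apart (n = 3).

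Soltu.DM.09G023750 averaged 111.8 ± 5.03 CPM at week 16 (SD, n = 4) and had 80.3, 108.6, 116.8 and 107.2 CPM at week 17 and 123.3, 84.04, 105.2 and 101.8 CPM at week 18 in air, against 146, 155, 158 and 181 CPM at ethylene week 15. No library in air reached the ethylene range (log2 fold change -0.74, SE 0.06, adjusted p = 1.61e-13, edgeR). Soltu.DM.02G027470 averaged 10.0 CPM, 9.06 CPM and 6.86 CPM at weeks 16, 17 and 18, against 18.4, 23.4, 16.0 and 19.4 CPM at ethylene week 15 (log2 fold change -1.33, SE 0.21, adjusted p = 1.20e-06, edgeR). Soltu.DM.05G010770 went the other way, with means of 5.17, 6.84 and 10.2 CPM in air, against 1.42, 1.36, 1.49 and 1.07 CPM at ethylene week 15 (log2 fold change 2.25, SE 0.37, adjusted p = 3.36e-06, edgeR). Soltu.DM.01G026780 averaged 15.8, 15.9 and 16.5 CPM in air, against 9.33, 9.47, 9.39 and 9.23 CPM at ethylene week 15 (log2 fold change 0.62, SE 0.14, adjusted p = 0.000432, edgeR). In these last 3 genes the libraries in air did not overlap with ethylene week 15, except for 8.93 CPM of Soltu.DM.01G026780 in the library that stood apart. Without that library all 4 genes kept their calls, and the log2 fold change of Soltu.DM.01G026780 was 0.68 (SE 0.13, adjusted p = 2.65e-05, edgeR).

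Relative to controls of the same age, members in air after ethylene were more often higher than lower at weeks 16 and 18. All 4 libraries in air exceeded all 4 controls in 13, 2 and 11 members at weeks 16, 17 and 18, and were below them in 2, 3 and 1. The shares of all genes tested were 4.04%, 3.42% and 6.71% higher and 6.69%, 7.83% and 5.61% lower. Week 17 rests on the library that stood apart. Without it, the other 3 libraries in air exceeded all 4 controls in 14 members and were below them in 3, with 6.28% of all genes higher and 10.1% lower. No member group was tested here, since the control libraries of these weeks had entered the rule as levels to be exceeded. That choice favours a higher value in air than in these controls.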

How the data were processed

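RNA-seq libraries of primary bud and flesh were grouped by the tissue, treatment and time point in their labels. The authors deposited a table of counts per gene and one of counts per transcript, as whole numbers without normalization. Per the submitters' processing notes, the tools included HISAT2, StringTie, SAMtools and Trimmomatic (no versions). No source used here gives the genome build, or how strand and shared reads were counted. One row that names no gene, with 1.76% to 2.95% of a library's counts, was left out. CPM were computed here from the deposited counts on library totals.

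Genes were tested with edgeR 4.0.16 in R 4.3.3 (quasi-likelihood test, TMM scaling, minimum count 10, minimum total 15, adjusted p under 0.05 over all genes tested). All 68 libraries of a tissue were fitted together (51 residual degrees of freedom), or all bud and flesh libraries where tissues were compared (102). Where a comparison averaged several groups, their fitted levels were averaged on the log scale. The bud fit takes its spread in part from the control libraries that chose the members. Alternatives were DESeq2 1.42.0 as a test, its size factors, no filter, fits of the compared groups alone, the replicate number as a block, and each compared library left out in turn; the last kept the tested genes and the dispersion trend. Scripts were tested on simulated data.

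For each comparison, the IDs named are at most 2 higher and 2 lower, the largest changes past the threshold with at least 5 CPM in the higher group; for the description, the 2 of largest margin, of highest level and of each shape. The third lower member in ethylene buds was named after its values were seen. The members and lists were chosen with earlier results of these data known. A bound against a group without counts uses 3 counts over the group and covers counting error only.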

Additional observations from a re-analysis of the deposited data

Results flagged for a closer look

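In 87 groups of 4 libraries checked, 7 held a library whose gap to the others was above Dixon's 95% critical value; chance flags about 1 group in 20. For the median over the members, these were replicate 2 of flesh after 1 week in air (3.35, others 3.65 to 3.69) and replicate 3 of control flesh at week 9 (4.58, others 4.31 to 4.34). Soltu.DM.06G029960 had 14.2 CPM in replicate 4 of ethylene flesh at week 3 (others 6.61 to 7.09) and 583 CPM in replicate 4 of control buds at week 3 (others 122.6 to 197). Soltu.DM.04G009800 had 31.04 CPM in replicate 1 of control buds at week 3 (others 1.28 to 2.88), and Soltu.DM.04G009790 had 0.393 CPM in replicate 2 of ethylene buds at week 3 with no counts in the others. Soltu.DM.08G023380 had 0 CPM in replicate 3 of control flesh at week 3 (others 1.90 to 2.23).

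The week 3 contrast under ethylene differed between bud and flesh by the interaction test (edgeR) for 25 members in the positive direction and 1 in the negative direction. Soltu.DM.08G023380 differed by 4.16 (log2, adjusted p = 4.10e-06) and Soltu.DM.02G027470 by -0.75 (log2, adjusted p = 0.0246). Soltu.DM.12G002200 passed with an adjusted p of 0.00308, but ethylene flesh had no counts at week 3 and its later means were 1.07, 0.250, 2.01 and 0.173 CPM, so no size is given. Without replicate 3 of ethylene flesh at week 9, or replicate 2 at week 15, its call was lost (adjusted p of 1).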

How the results depend on the processing

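No result changed direction under any alternative, and counts of members called stayed within 1.5 times of those reported except as follows. With only the compared groups in the fit, 7 members were lower in air after ethylene (13 reported). Without a filter on low counts, 0 members had a more negative week 3 contrast in bud than in flesh (1 reported). With each compared library left out in turn, members lower in ethylene flesh than control flesh at week 3 numbered 2 to 6, members higher in air after ethylene 2 to 4, members lower at week 3 in ethylene flesh 2 to 7, and members with a more negative contrast in bud 0 to 2. The counts that lead the comparisons ranged from 31 to 38 (higher at week 3 in ethylene buds), 32 to 35 (control flesh) and 22 to 26 (more positive in bud than flesh). Correlations of the deviations of same-numbered libraries were over 0.1 in 4 of 40 pairs for the week 3 contrast in bud and in 5 of 24 for the air contrast. They averaged 0.0398 and 0.0443, against -0.0132 and -0.0144 for libraries of unlike number. For Soltu.DM.10G001240, replicate 1 was the lowest in 8 of 8 ethylene and air bud groups, and other members were not counted this way. The labels do not say whether same numbers belong together, so the main fit did not pair them. With the replicate number as a block the 3 counts that lead the comparisons were 38, 34 and 25, and no count moved by over 1.5 times. At week 17, members higher in air than in controls with no overlap numbered 2, or 14 without replicate 1 in air, a choice made after seeing the data. The members themselves depend on the scaling: TMM-scaled CPM gave 50 genes, 37 of them among the 48, pseudocounts of 0.5 and 2 gave 59 and 42, and the median of 4 libraries in place of the mean gave 44, of which 37 were shared. At these depths counting error weighs on the 6 members under 5 CPM at week 3.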

Other observations

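In the transcript table, 34 of the 48 members had 1 transcript and 14 had 2 or more. Soltu.DM.02G027470 had 3, and its leading transcript took 85.05% ± 15.4 of the gene's counts in ethylene buds and 57.2% ± 20.7 in control buds at week 3 (SD, n = 4 each), with ranges that overlapped (62.2% to 95.7% and 38.9% to 80.6%). Soltu.DM.12G022690 also had 3, with a leading share of 83.4% ± 12.7 in ethylene buds and 90.9% ± 4.96 in control buds. For Soltu.DM.08G023380 a single transcript held 100% of the counts in both groups. These shares were read after the members were known and were not tested.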
